A study of Mus musculus with 8 samples.

Results

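Itgb1, Cdh1, Cdh2, Epcam and Ctnnd1 are adhesion genes of the embryonic stem cell surface and its inner face, and they were followed here on 8 cDNA microarrays with 2 colours. The members were fixed by name: every probe annotated to 1 of these 5 symbols was taken, which gave 14 of the 20355 probes and 5 of the 9930 genes with a symbol. Itgb1 had 6 probes, Cdh2 had 3, Cdh1 and Epcam had 2 each, and Ctnnd1 had 1. All 5 genes were measured on 8 arrays and entered the test, among 14015 features with values on 3 or more arrays per group.

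Each array set HM-1 against R1, both lines of mouse embryonic stem cells, in different dyes. On 4 arrays both lines had been given nocodazole, a drug that takes microtubules apart and holds cells in mitosis, and on 4 arrays both were untreated. Replicates are numbered 1 to 4 in each group. The labels place HM-1 in Cy5 on nocodazole replicates 1, 2 and 3 and on untreated replicates 1 and 2. They place it in Cy3 on nocodazole replicate 4 and untreated replicates 3 and 4. The design text of the series gives a larger share of dye swaps than these labels do. An alternative fit therefore gave nocodazole replicate 3 the opposite dye, and no other array was relabelled. The sources used here do not give the dose, the duration of the drug or the passage. Whether replicates came from separate cultures is not stated either, so a p-value reflects array-to-array spread that may be technical. A value is a log2 ratio between the lines with the sign of the deposited table, centred on the median of its array. The labels do not say which line stands in the numerator or whether dye-swapped arrays were already turned, so no line is called higher, and ratios with the 3 Cy3 arrays turned are given beside those of the members and gene lists. A ratio gives no level, so the markers of the cell type could not be checked for presence, and fewer cells of a type and less RNA per cell cannot be told apart.

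The cadherins Cdh1 (E-cadherin) and Cdh2 (N-cadherin) are calcium-dependent receptors that bind their like on the next cell. Their cytoplasmic tails hold catenins, among them the p120-catenin made from Ctnnd1, which binds close to the membrane and keeps cadherins at the surface. Itgb1 encodes the integrin beta1 chain, which pairs with many alpha chains to bind laminin, fibronectin and collagen, and Epcam encodes an epithelial adhesion protein found at the surface of pluripotent cells. Mouse embryonic stem cells grow in compact colonies held together by E-cadherin, and a shift from Cdh1 to Cdh2 is known from the exit from pluripotency at gastrulation.

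Promoter windows of RefSeq (GRCm38.p6) were at hand for 3 of the 5 members, and the 250 bases before the annotated start are shown for these 3 so that these genes can be set side by side. The Itgb1 average and the complete Epcam probe had the same sign on all 8 arrays, and Ctnnd1 differed in sign from them on the 3 Cy3 arrays. Capitals mark CACCTG or its reverse complement CAGGTG, the E-box bound by repressors of Cdh1 such as Snai1 and Zeb1, and CCAAT or its reverse complement ATTGG. The windows are chr8:128685404-128685653 on the plus strand for Itgb1, chr17:87635729-87635978 on the plus strand for Epcam and chr2:84658978-84659227 on the minus strand for the first of 2 Ctnnd1 windows, each written 5′ to 3′.
Itgb1: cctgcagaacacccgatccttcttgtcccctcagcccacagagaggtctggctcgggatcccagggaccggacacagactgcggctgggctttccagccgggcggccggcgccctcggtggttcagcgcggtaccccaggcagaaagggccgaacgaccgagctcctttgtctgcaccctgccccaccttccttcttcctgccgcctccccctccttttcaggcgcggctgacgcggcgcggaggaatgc
Epcam: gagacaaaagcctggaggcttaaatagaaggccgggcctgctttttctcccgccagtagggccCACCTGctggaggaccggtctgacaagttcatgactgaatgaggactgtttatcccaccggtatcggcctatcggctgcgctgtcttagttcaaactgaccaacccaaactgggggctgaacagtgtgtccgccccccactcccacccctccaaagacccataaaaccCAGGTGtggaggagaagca
Ctnnd1: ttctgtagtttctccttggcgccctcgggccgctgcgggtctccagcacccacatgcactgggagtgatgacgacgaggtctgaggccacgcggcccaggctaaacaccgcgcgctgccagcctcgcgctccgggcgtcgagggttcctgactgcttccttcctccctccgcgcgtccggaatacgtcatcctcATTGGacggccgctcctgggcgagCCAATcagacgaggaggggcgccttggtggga

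The Epcam window held 2 E-boxes, 187 and 19 bases before the start, and the Itgb1 and Ctnnd1 windows held 0. The E-box was in 17.2% of the 32851 mouse windows of the same length. Ctnnd1 held 2 CCAAT boxes, 56 and 32 bases before the start, a motif in 33.8% of windows, and the other two windows held 0. G and C made up 68.0% of the Itgb1 window, 56.4% of the Epcam window and 66.8% of the Ctnnd1 window, against a median of 52.4%. The searches covered both strands, the motifs do not overlap each other, and a match describes letters and not a bound site.

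Arrays held between 17928 and 19445 values, and their centred log2 ratios had a standard deviation of 0.78 to 0.91, apart from nocodazole replicate 3 with 1.28. Arrays were weakly alike: Pearson's r over all features was 0.018 to 0.22 in the 13 pairs that carry HM-1 in the same dye, and -0.23 to -0.0069 in the 15 others. Ratios with a denominator of 0 were deposited as a fixed code, which also shows where a ratio of exactly 1 lies on each array. This code is positive on the 5 arrays with HM-1 in Cy5 (16.48 to 16.99) and negative on the 3 with HM-1 in Cy3 (-16.85 to -16.36), so signs were handled differently by dye before deposit. Such signs are those left when ratios of a fixed dye to the other are turned on the Cy3 arrays, but the labels do not state that step. In the deposited signs all 15 pairs of opposite dye had a negative r. A dye effect in turned ratios and a line difference in unturned ones would both give this, so r does not decide. The direction that the ratios had before is not given, and both readings are therefore shown. Up to 19.4% of an array's values matched a quotient of small integers (10 at most, within 0.0015 in log2), against at most 5.90% when that point was shifted, and such a value may come from very few intensity units.

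Itgb1 leaned the same way on 7 of 8 arrays. The mean of its 6 probes was 0.22, -0.28, -0.17 and -0.27 on nocodazole replicates 1 to 4, and -0.10, -0.17, -0.30 and -0.38 on untreated replicates 1 to 4. Nocodazole replicate 1 was the only positive array, and the other three nocodazole arrays lay inside the range of the untreated ones. The group means were -0.12 ± 0.24 with nocodazole and -0.24 ± 0.12 untreated (SD, n = 4 each). Of the 11681 features measured on all arrays, 2.85% were below 0 on these same 7 arrays, and of those with 4 untreated values, 7.22% were below 0 on all 4 untreated arrays. No member was on 1 side of 0 on all 4 nocodazole arrays, a pattern of 4.19% of features below 0 and 6.11% above, and none was above 0 on all 4 untreated arrays, against 6.76%.

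The 6 Itgb1 probes, which share their RNA and arrays and are not replicates, all averaged below 0 in untreated cells. These untreated means lay between -0.45 for probe 814 and -0.14 for probe 8763. With nocodazole the means were between -0.24 for probe 814 and 0.0028 for probe 8763, and 5 of the 6 were below 0. All 6 probes were negative on nocodazole replicates 2 and 4 and on untreated replicates 3 and 4. On nocodazole replicate 1, 5 of the 6 were positive, between 0.09 and 0.36, and probe 8763 stood at -0.013. The arrays on which probes split were nocodazole replicate 3 (4 of 6 negative) and untreated replicates 1 (3 of 6) and 2 (4 of 6). The widest split was on untreated replicate 2, where probe 814 was at -0.96 and probe 19297 at 0.46.

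**Figure D1:**
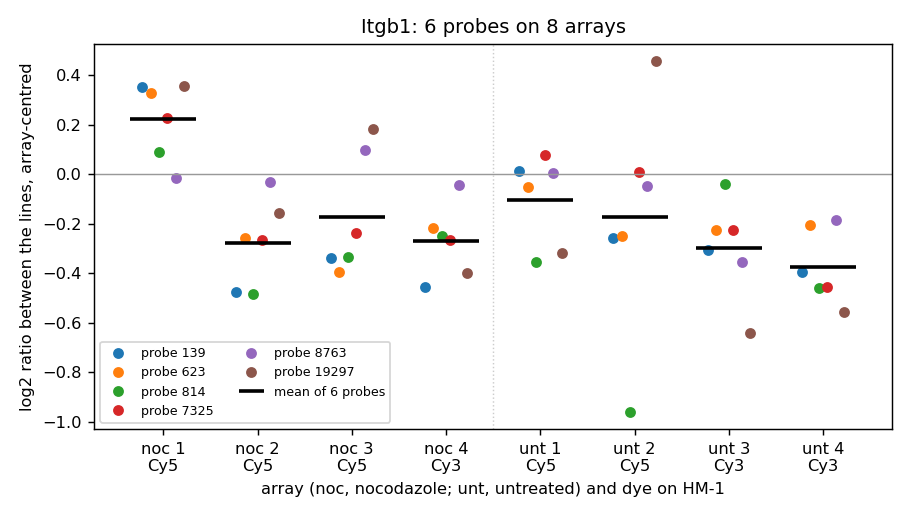
Log2 ratio between the lines for each of 6 Itgb1 probes (points) and their mean (bars) on the 4 nocodazole arrays and the 4 untreated arrays, with the dye on HM-1 below each array. The mean is positive on nocodazole replicate 1 (0.22) and between -0.38 and -0.10 on the other 7 arrays.

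Probes of Itgb1 lay closer to each other than those of most genes. The standard deviation between probes of 1 array averaged 0.22, against a median of 0.40 over the 322 genes with at least 3 probes measured on all arrays, and 85.1% of these genes had a larger one. The median Pearson's r over the 15 pairs of probes was 0.44 across the 8 arrays, against a median of 0.011 over the 322 genes, and 12.1% of the genes had a higher one. The pairs ranged from -0.29 for probes 814 and 19297 to 0.90 for probes 139 and 623. Without nocodazole replicate 1 the median r was 0.09, so it rests on that array, and with the Cy3 arrays turned it was 0.57. These r have no p, since the points are shared arrays of 2 groups.

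In the limma test the fitted Itgb1 ratio was -0.17 (SE 0.11, adjusted p = 0.999) with nocodazole and -0.24 (SE 0.11, adjusted p = 0.796) untreated. Over both conditions it was -0.21 (SE 0.08, adjusted p = 0.894), with an unadjusted p of 0.0352, and 5.59% of all features had an unadjusted p under 0.05 in this comparison. The change, nocodazole minus untreated, was 0.065 (SE 0.16, adjusted p = 0.997). Fitted values carry the dye term and so differ from the group means with nocodazole, where 3 of the 4 arrays share a dye. Each Itgb1 probe fitted alone gave a negative ratio over both conditions, from -0.32 (SE 0.12) for probe 814 to -0.09 (SE 0.06) for probe 8763. With the Cy3 arrays turned the sign no longer ran through the arrays: Itgb1 was then at 0.22, -0.28, -0.17 and 0.27 on nocodazole replicates 1 to 4 and at -0.10, -0.17, 0.30 and 0.38 on untreated replicates 1 to 4, with a fitted ratio over both conditions of 0.11 (SE 0.08, adjusted p = 0.648).

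None of the 5 members passed the adjusted threshold in any comparison, in limma over all 14015 features. The threshold called 0 features in each, which is 0%. Unadjusted p-values under 0.05 were found for 408 features (2.91%) with nocodazole, 887 (6.33%) untreated, 783 (5.59%) over both conditions and 467 (3.33%) for the change. Of the members, only Itgb1 over both conditions was among these.

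Cdh1 had 1 complete probe close to 0 and 1 incomplete probe far from it. Probe 20238 was at 0.165, -0.19, -0.20 and -0.17 on nocodazole replicates 1 to 4, and at 0.036, 0.15, -0.09 and -0.13 on untreated replicates 1 to 4. Its means were -0.10 ± 0.18 with nocodazole and -0.0080 ± 0.13 untreated (SD, n = 4 each), and on nocodazole replicate 1 it was again positive while the other nocodazole arrays lay together below 0. Probe 705 had 5 values, at -2.21, -0.93, -0.019 and 0.68 on nocodazole replicates 1 to 4 and 2.695 on untreated replicate 3, with no value on the other untreated arrays. The probes of this 1 gene thus differed in sign on 3 of the 5 arrays where both were measured, nocodazole replicates 1 and 4 and untreated replicate 3.

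The average of both Cdh1 probes therefore moved with probe 705. It was -0.36 ± 0.55 with nocodazole and 0.34 ± 0.65 untreated (SD, n = 4 each), and the untreated value rests on the 1.30 of untreated replicate 3. The fitted ratios were -0.20 (SE 0.27, adjusted p = 0.999) with nocodazole, 0.34 (SE 0.25, adjusted p = 0.899) untreated, and -0.54 (SE 0.37, adjusted p = 0.997) for the change, in limma. Without untreated replicate 3 the untreated ratio was 0.07 and without untreated replicate 4 it was 0.66, and with probe 20238 alone it was -0.0080 (SE 0.09) and the change -0.13 (SE 0.14). On this complete probe the E-cadherin ratio was within 1 SD of 0 in both conditions. Turning the Cy3 arrays gave a Cdh1 ratio of -0.55 (SE 0.30) with nocodazole and -0.25 (SE 0.28) untreated.

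Cdh2 was near 0 in both conditions, with probes that did not run together. Probe 4148, the only one with 8 values, was at 0.30, 0.032, -0.013 and -0.09 on nocodazole replicates 1 to 4 and at 0.60, 0.12, -0.32 and -0.45 on untreated replicates 1 to 4. Its nocodazole values all lie within the range of the untreated ones. Probe 8794 was at 0.12, -0.57, 0.49 and -0.26 on nocodazole replicates 1 to 4 and at 0.034, -0.28 and -0.68 on untreated replicates 1, 2 and 4. For probe 7303, 5 of its 6 values matched a ratio of small whole numbers, 3 of these a ratio of exactly 1, and nocodazole replicate 1 held the code for a denominator of 0. Other member probes matched on 0 to 2 arrays each. Over the 7 arrays that probes 4148 and 8794 share, r was 0.51, and over the 6 arrays of probes 4148 and 7303 it was -0.69.

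The average Cdh2 ratio was -0.11 ± 0.30 with nocodazole and 0.09 ± 0.23 untreated (SD, n = 4 each). The fit gave -0.15 (SE 0.15, adjusted p = 0.999) with nocodazole, 0.09 (SE 0.14, adjusted p = 0.983) untreated and -0.25 (SE 0.21, adjusted p = 0.997) for the change, in limma. Without the values that matched ratios of small whole numbers the nocodazole ratio was 0.0083, and with the median over probes in place of the mean the untreated ratio was -0.048. Turned on the Cy3 arrays, Cdh2 was at 0.057 (SE 0.16) with nocodazole and 0.066 (SE 0.15) untreated. Neither cadherin passed the test in either condition. Their ratios were not tested against each other, and a ratio gives no level of either cadherin.

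Epcam had a complete probe with the signs of the Itgb1 average on all 8 arrays and an incomplete one without them. Probe 13513 was at 0.48, -0.19, -0.27 and -0.29 on nocodazole replicates 1 to 4, and at -0.051, -0.12, -0.44 and -0.66 on untreated replicates 1 to 4. As for Itgb1, only nocodazole replicate 1 was positive. Its means were -0.07 ± 0.37 with nocodazole and -0.32 ± 0.29 untreated (SD, n = 4 each). Over the 8 arrays its r to the 6 Itgb1 probes ranged from 0.28 for probe 814 and 0.49 for probe 8763 to 0.84 for probe 139 and 0.91 for probe 7325. Probes 139 and 7325 were also alike to Cdh1 probe 20238 (0.79 and 0.86) and Cdh2 probe 4148 (0.66 and 0.84), so such an r is not particular to Epcam. Ctnnd1 had r between -0.70 for Itgb1 probe 8763 and 0.64 for Itgb1 probe 814.

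The other Epcam probe, 716, had 6 values, at -0.10, -0.14, -1.92 and 0.40 on nocodazole replicates 1 to 4 and at -1.50 and 2.13 on untreated replicates 1 and 4. Its values span both ends of the distribution of their arrays, from the percentile 6.75 on untreated replicate 1 to 97.0 on untreated replicate 4. The average over both probes was -0.25 ± 0.58 with nocodazole and -0.15 ± 0.65 untreated (SD, n = 4 each). In limma the fitted ratios were -0.12 (SE 0.29, adjusted p = 0.999) with nocodazole and -0.15 (SE 0.27, adjusted p = 0.9896) untreated, with a change of 0.026 (SE 0.40, adjusted p = 0.999). Probe 13513 alone gave -0.17 (SE 0.15, adjusted p = 0.994) with nocodazole and -0.32 (SE 0.14, adjusted p = 0.774) untreated. The average gave, after turning the Cy3 arrays, -0.21 (SE 0.29) with nocodazole, -0.30 (SE 0.27) untreated and -0.25 (SE 0.20) over both conditions.

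**Figure D2:**
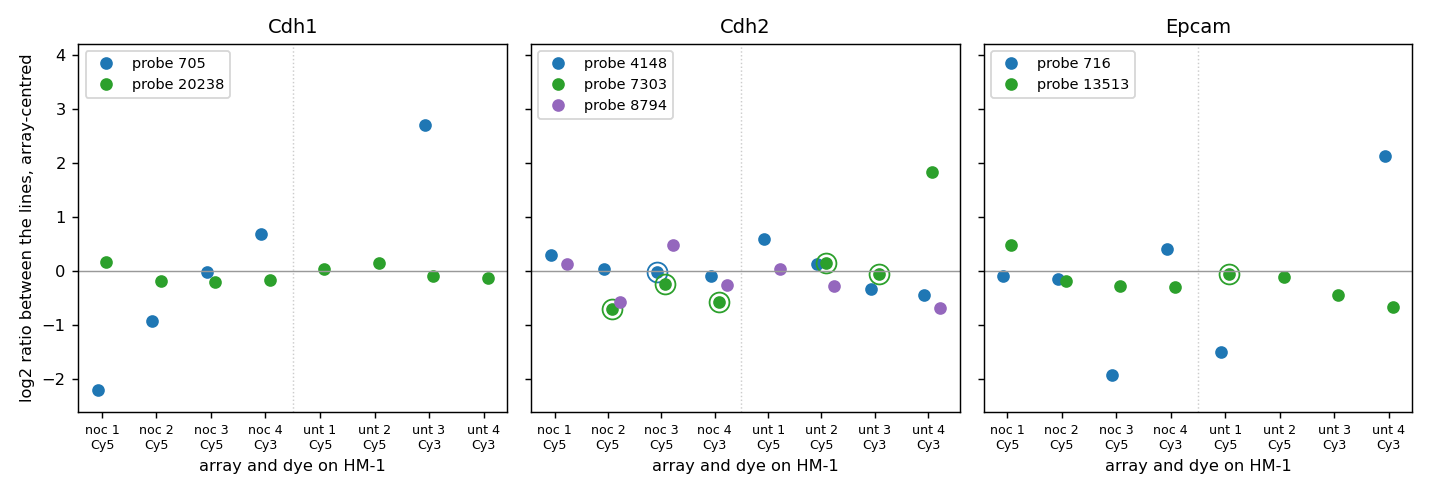
Log2 ratio between the lines for each probe of Cdh1, Cdh2 and Epcam on the 4 nocodazole arrays (left of the dotted line) and the 4 untreated arrays, with rings around values that match a ratio of whole numbers up to 10. Probes 20238, 4148 and 13513 have 8 values each, between -0.66 and 0.60, while probes 705, 7303 and 716 miss arrays and reach 2.695, 1.84 and 2.13.

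Ctnnd1 split by dye on 7 of 8 arrays. Its 1 probe was at 0.24, -0.81, -0.80 and 0.305 on nocodazole replicates 1 to 4, and at -1.29, -1.15, 0.82 and 0.41 on untreated replicates 1 to 4. It was negative on 4 of the 5 arrays with HM-1 in Cy5 and positive on all 3 with HM-1 in Cy3, and nocodazole replicate 1 was the exception. Of the features measured on all arrays, 1.81% had this same pattern of signs on the 7 other arrays. The dye term was -0.69 (SE 0.18), with an unadjusted p of 0.00712 and an adjusted p of 0.442 in limma. In this term 0 features (0%) passed the adjusted threshold, and 1284 (9.16%) had an unadjusted p under 0.05. The dye terms of the other members were between -0.32 for Cdh1 and 0.10 for Itgb1, with unadjusted p between 0.143 and 0.403.

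Read with the sign as deposited, the Ctnnd1 means were -0.27 ± 0.62 with nocodazole and -0.30 ± 1.08 untreated (SD, n = 4 each), and the fitted ratios 0.08 (SE 0.25, adjusted p = 0.999) and -0.30 (SE 0.24, adjusted p = 0.908) in limma. With the Cy3 arrays turned, Ctnnd1 was at 0.24, -0.81, -0.80 and -0.305 on nocodazole replicates 1 to 4 and at -1.29, -1.15, -0.82 and -0.41 on untreated replicates 1 to 4. The fitted ratio was then -0.32 (SE 0.21, adjusted p = 0.893) with nocodazole and -0.92 (SE 0.20, adjusted p = 0.233) untreated. The change, nocodazole minus untreated, was 0.38 (SE 0.35, adjusted p = 0.997) as deposited and 0.60 (SE 0.29, adjusted p = 0.952) turned. As deposited it was 0.12 without nocodazole replicate 1 and 0.76 without nocodazole replicate 4. Itgb1 thus kept 1 sign over 7 arrays only in the deposited reading and Ctnnd1 only in the turned one, and in both cases the remaining array was nocodazole replicate 1. What the dye term holds in the deposited reading is part of the ratio between the lines in the turned one, and the labels do not settle the reading.

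**Figure D3:**
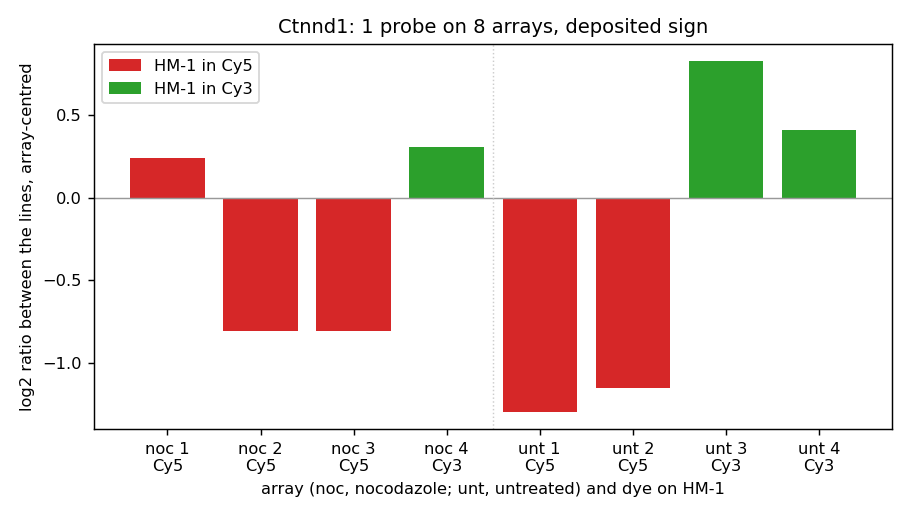
Log2 ratio between the lines for the 1 Ctnnd1 probe on the 4 nocodazole arrays and the 4 untreated arrays with the deposited sign, coloured by the dye on HM-1. The Cy3 arrays stand between 0.305 and 0.82, and the Cy5 arrays between -1.29 and -0.80 apart from nocodazole replicate 1 at 0.24.

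**Figure D4:**
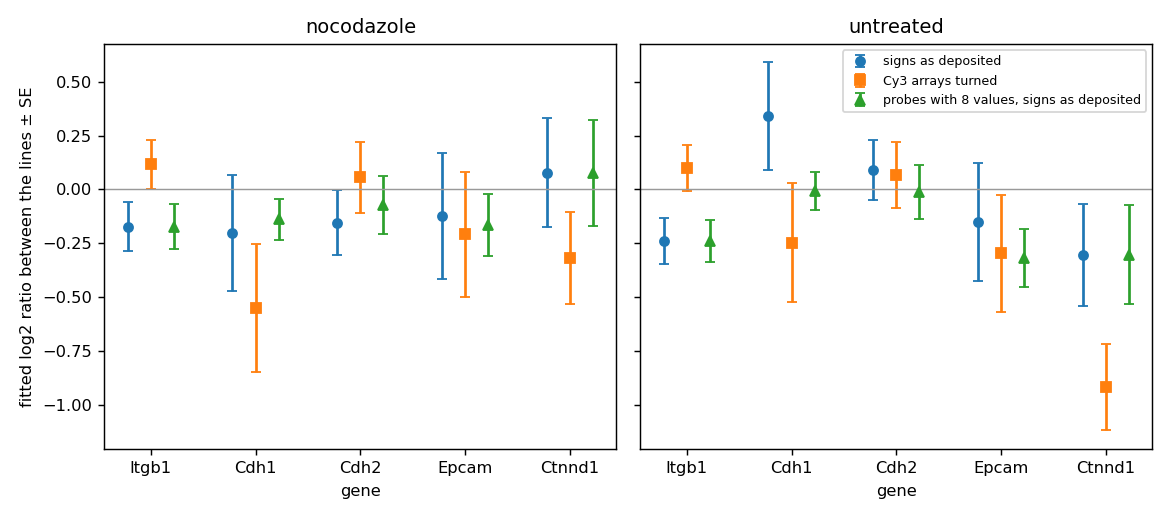
Fitted log2 ratio between the lines with its SE for the 5 genes, with nocodazole (left) and untreated (right), for 3 readings of the same arrays: signs as deposited, Cy3 arrays turned, and only probes with a value on all 8 arrays. The untreated Cdh1 ratio is 0.34 over both probes and -0.0080 on the complete probe, and the untreated Ctnnd1 ratio is -0.30 as deposited and -0.92 turned.

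Between the conditions the ranges of nocodazole and untreated arrays overlapped for the averages of all 5 members, while 2.08% of the 11681 features measured on all arrays had ranges that did not. Since treated and untreated cells never share an array, the change is one of the ratio between the lines and says nothing of what the drug did within a line.

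The genes whose pattern was most like Itgb1 over the 8 arrays, among 7487 other named genes measured on all of them, were Atp6v0e, a subunit of the proton pump of acidic organelles, with r = 0.994, the lysosomal protease Ctsl with r = 0.991, and the collagen galactosyltransferase Colgalt1 with r = 0.987. Without nocodazole replicate 1 these r were 0.98, 0.96 and 0.94. Each of the 3 was between 0.47 and 0.68 on nocodazole replicate 1 and below 0 on the other 7 arrays, and 139 genes had an r above 0.9 to Itgb1. Such genes were fewer for the other members: 10 for Cdh1, led by Pllp (r = 0.98), 6 for Cdh2, led by Prkra (r = 0.97), 8 for Epcam, led by the glypican Gpc6 (r = 0.97), and 13 for Ctnnd1, led by the necroptosis kinase Ripk3 (r = 0.94). The next for each were Pde8a and Ttc12 (r = 0.96 each) for Cdh1, Fcgr1 (0.93) and G3bp2 (0.92) for Cdh2, Ndufs7 (0.96) and Tbc1d14 (0.94) for Epcam, and Ccdc174 and Hdlbp (0.94 each) for Ctnnd1. With only 8 arrays and 7487 genes compared, some r above 0.9 arise by chance for any gene. How many was not tested, so these names are a listing and no sign of shared regulation. The search used the deposited signs only, and the counts of genes with an r above 0.9 include nocodazole replicate 1. The averages of Cdh1, Cdh2 and Epcam used here include their incomplete probes.

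Around the cadherins, the genes of adherens junctions had mostly negative ratios. Of 18 catenins and junction partners tested, 11 were negative with nocodazole, 12 untreated and 15 over both conditions, with a median of -0.13 over both, against 51.2% negative and a median of -0.0052 for all features. None passed the test in limma in either direction, and 2 had an unadjusted p under 0.05, 1 in each direction. With the Cy3 arrays turned 10 of the 18 were negative over both conditions (median -0.0062). In that reading 12 were negative with nocodazole (median -0.065) and 5 untreated (median 0.070). The lean of this list was thus kept with nocodazole and not in untreated cells. The list's median on the single arrays was between -0.19 and 0.23 with nocodazole, highest on replicate 1, and between -0.28 and 0.047 untreated. Over both conditions the fitted ratio was -0.46 (SE 0.19) for Vcl, vinculin, which links catenins and talin to actin, and -0.45 (SE 0.46) for Ctnna1, alpha-catenin. At the other end were Arvcf, a relative of p120-catenin, at 0.18 (SE 0.16) and the tyrosine phosphatase Ptpn1 at 0.69 (SE 0.25). Of 18 other cadherins and protocadherins, 10 were negative over both conditions, with a median of -0.025 and 0 past the test, and 13 were negative with the Cy3 arrays turned (median -0.055). Their lowest were the giant cadherin Fat2 at -0.38 (SE 0.29) and R-cadherin, Cdh4, at -0.37 (SE 0.12, from 5 probes), and their highest Fat3 at 0.22 (SE 0.11) and Celsr1 at 0.27 (SE 0.17).

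Integrin chains other than Itgb1 were fewer in the data, with 9 of 16 on the array tested. With nocodazole 8 of the 9 were negative, and untreated 4 of 9, with medians of -0.19 and 0.0063 and 0 past the test in limma. Of all features, 51.1% were negative with nocodazole and 50.1% untreated. With the Cy3 arrays turned 8 of 9 integrin chains were negative with nocodazole (median -0.28) and 3 of 9 untreated (median 0.052). The change, nocodazole minus untreated, was negative for 9 of 9 (median -0.28), against 50.9% of all features, and for 7 of 9 with the Cy3 arrays turned (median -0.27). The list's median on the single arrays was between -0.725 and 0.040 with nocodazole and between -0.15 and 0.085 untreated. The nocodazole arrays thus differed widely among themselves, and their range overlapped the untreated one. Over both conditions the lowest were Itgae at -0.49 (SE 0.67) and Itga2 at -0.25 (SE 0.25), and the highest Itga4 at 0.08 (SE 0.37) and Itgb5 at 0.20 (SE 0.14), where Itga2 and Itga4 encode partners of the beta1 chain. Of 20 proteins of the integrin adhesion complex, 14 were negative over both conditions (median -0.14), 14 with nocodazole and 11 untreated, and 0 passed. Turning the Cy3 arrays left 12 negative over both conditions (median -0.026), 10 with nocodazole and 6 untreated. The negative lean of this list was thus weaker over both conditions and absent in each condition alone. Cib1, a calcium-binding protein first found on an integrin tail, was at -0.98 (SE 0.37) and vinculin next, while the adaptor Lims2 was at 0.17 (SE 0.19) and Itgb1bp2 (melusin), which binds the beta1 tail in muscle, at 0.34 (SE 0.16). Of 14 matrix ligands of beta1 integrins, 8 were negative over both conditions (median -0.07), 10 with the Cy3 arrays turned (median -0.12), and 0 passed. The lowest were thrombospondin, Thbs1, at -0.47 (SE 0.18) and the laminin chain Lamc1 at -0.40 (SE 0.22), and the highest the collagen Col4a1 at 0.034 (SE 0.21) and the laminin chain Lamb2 at 0.14 (SE 0.47).

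Partners and proteases of Epcam split evenly, with 5 of 10 negative over both conditions and a median of 0.0092, and 5 of 10 with the Cy3 arrays turned (median -0.018). Cldn7, the claudin that binds Epcam, was at -0.25 (SE 0.15) and the protease Prss8 at -0.09 (SE 0.25), and the tetraspanin Cd9 was at 0.41 (SE 0.18) and the protease inhibitor Spint2 at 0.71 (SE 0.50). Of 11 genes of tight junctions and desmosomes, 7 were negative (median -0.046), and 6 with the Cy3 arrays turned (median -0.014), from Cldn7 and Cldn11 (-0.22, SE 0.29) to Jam3 (0.19, SE 0.14) and the plakophilin Pkp1 (0.28, SE 0.28). Of 11 repressors of Cdh1 and mesenchymal genes, 6 were negative over both conditions, 8 with nocodazole and 1 untreated, with medians of -0.20 with nocodazole and 0.19 untreated. This contrast was not there with the Cy3 arrays turned, where 5 of 11 were negative in each condition, with medians of 0.050 with nocodazole and 0.060 untreated. Vim, the mesenchymal filament vimentin, was at -0.20 (SE 0.09) and Snai2 at -0.16 (SE 0.33), and Twist2 was at 0.10 (SE 0.21) and Zeb2 at 0.44 (SE 0.31). No gene of these 3 lists passed the test in limma in any comparison.

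Endoderm markers had, like Itgb1, a positive median on nocodazole replicate 1 and negative ones on the untreated arrays in the deposited reading. This was not particular to them. The median of the integrin adhesion complex was 0.19 on that array and between -0.15 and -0.016 on the untreated ones. For the feeder fibroblast markers it was 0.008 on that array and between -0.18 and -0.06 on the untreated ones. Of 11 genes of primitive and parietal endoderm, 8 were negative over both conditions (median -0.42), and the list's median was 0.76 on nocodazole replicate 1 and at lowest -0.60 on another nocodazole array, against -0.67 to -0.16 on the untreated arrays. Dab2, an endocytic adaptor, was at -0.80 (SE 0.29) and Sparc, a matrix glycoprotein, at -0.75 (SE 0.30), and at the other end Hnf4a was at 0.12 (SE 0.30) and Amn at 0.26 (SE 0.32). Of 13 feeder fibroblast markers 8 were negative (median -0.13), with medians between -0.16 and 0.017 on the nocodazole arrays and between -0.18 and -0.06 on the untreated ones, and with S100a4 at -0.51 (SE 0.17), Pdgfra at -0.47 (SE 0.63), Col5a2 at 0.032 (SE 0.10) and Twist2 at the top. With the Cy3 arrays turned 6 of the 11 endoderm genes (median -0.018) and 7 of the 13 fibroblast genes (median -0.011) were negative over both conditions. Of 9 embryonic stem cell markers 8 were positive over both conditions (median 0.14). The list ran from Sox2 at -0.031 (SE 0.17) and Zfp42 at 0.00091 (SE 0.09) to the Nodal antagonist Lefty1 at 0.41 (SE 0.10) and Gdf3 at 1.09 (SE 0.39). Its median had the opposite signs to the endoderm list, with -0.15 on nocodazole replicate 1 and 0.024 to 0.34 on the untreated arrays, as deposited. The list of primed epiblast, mesoderm and neural genes had 3 tested members, with Mesp1 at -0.13 (SE 0.59) and Nes at -0.037 (SE 0.06) among them. Of the 9 stem cell markers, 4 were negative once the Cy3 arrays were turned. None of these markers passed the test in limma, all of these ratios are relative so that no marker can be called absent, and the part of other cells in the Itgb1 ratio was not tested.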

How the data were processed

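The deposited table holds 1 log2 ratio per probe and array from 8 arrays with 2 channels. Per the labels' protocols RNA was copied into cDNA and coupled to Cy3 or Cy5. The sources used here name neither the authors' software nor a background correction or normalization. That the deposited values are log2 follows from the code described next, spot brightness is unknown, and the number of arrays limits the precision. Between 74 and 203 values per array were a code for a denominator of 0 (a ratio of 100000, shifted by a constant of the array and with a negative sign on the 3 Cy3 arrays), and were set to missing, as was done in earlier work on these data. Array medians before centring lay between -0.19 and 0.12, and each array was centred on its own.

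Of 20355 probes, 14030 had 1 gene symbol in the platform's annotation, 5 several and 6320 none. Of these, 13994 matched RefSeq (GRCm38.p6) by gene ID, used for names and promoter windows. Probes of 1 symbol were averaged per array. The 14015 features with values on at least 3 arrays of each group were fitted with limma 3.58.1 in R 4.3.3 (lmFit, eBayes; a coefficient per group and a dye term), two-sided, with Benjamini-Hochberg adjustment over all features and a threshold of 0.05. The code of the fit was run on simulated data with a large added shift, less noise than on the arrays and no dye effect. That run does not show what the fit can detect among changes as small as those of the members. The signs of the table were kept as the main reading. The members and lists were chosen with earlier results of these data known. Named genes are the members, the 2 lowest and 2 highest of each list over both conditions among genes measured on all 8 arrays, and the 3 genes most alike to each member by Pearson's r. The alternatives were other readings of sign and dye, of coded and dim values, of centring, scaling and probe summaries, other filters, array weights, a robust fit, a replicate block and each array left out, and after the data were seen, complete probes alone.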

Additional observations from a re-analysis of the deposited data

Results flagged for a closer look

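In 4 of 31 groups of 4 arrays, where chance gives about 1 in 20 groups (1.55 here), 1 array exceeded Dixon's critical value, and each time it was nocodazole replicate 1. Itgb1 probe 139 was at 0.35 there against -0.475 to -0.34 on the other nocodazole arrays. Itgb1 probe 7325 was at 0.23 there against -0.27 to -0.23. Cdh1 probe 20238 was at 0.165 there against -0.20 to -0.17. Epcam probe 13513 was at 0.48 there against -0.29 to -0.19. These values share an array and are not independent of each other. The 31 groups hold gene means as well as the probes averaged in them, so the 1.55 is not for independent groups. The rule was not run on other features, so the count does not show that the members stand apart from them.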

How the results depend on the processing

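Ratios were refitted under 8 settings that leave out 1 array each and 16 others. No member passed the adjusted threshold in limma under any of them. The count of features past it with nocodazole was 1 in place of 0, an unnamed probe, when a value on all 8 arrays was required of features (1.34, adjusted p = 0.0316) or of probes (adjusted p = 0.0226). All sign changes follow, and where the setting itself does not show it the cause was not tested.

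With the Cy3 arrays turned, the nocodazole ratio was 0.12 for Itgb1, 0.057 for Cdh2 and -0.32 for Ctnnd1, the untreated ratio 0.099 for Itgb1 and -0.25 for Cdh1, and the ratio over both conditions 0.11 for Itgb1, -0.40 for Cdh1 and 0.062 for Cdh2. Without a dye term, and equally with nocodazole replicate 3 given the opposite dye label, the nocodazole ratio of Ctnnd1 was -0.27, the Cdh1 ratio over both conditions -0.0098 and the Epcam change -0.10. With coded values kept, Cdh2 was at 1.005 with nocodazole and 0.55 over both conditions, and its change was 0.91. With the median over probes, untreated Cdh2 was at -0.048. Without ratios of small whole numbers, Cdh2 was at 0.0083 with nocodazole and 0.025 over both conditions. On complete probes alone, chosen after seeing the data, Cdh1 was at -0.0080 untreated and -0.073 over both conditions, and untreated Cdh2 was at -0.011. Fitted probe by probe, Cdh1 probe 20238 and Cdh2 probe 4148 gave these same values. Cdh2 probe 8794 was at -0.38 untreated with a change of 0.22, Cdh2 probe 7303 was at 0.072 over both conditions, and the Itgb1 change was -0.057 on probe 139 and -0.062 on probe 7325.

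With 1 array left out, the nocodazole ratio was -0.30 to 0.090 for Epcam (without replicates 1 and 3) and -0.18 to 0.46 for Ctnnd1 (without replicates 1 and 4). The untreated ratio was -0.0081 to 0.17 for Cdh2 (without replicates 4 and 2) and -0.41 to 0.076 for Epcam (without replicates 4 and 3). Over both conditions the range was -0.10 to 0.28 for Cdh1, -0.095 to 0.021 for Cdh2, -0.30 to 0.0080 for Epcam and -0.24 to 0.079 for Ctnnd1. The change was -0.025 to 0.13 for Itgb1 and -0.17 to 0.24 for Epcam. Signs held but sizes moved for the nocodazole ratio of Itgb1 (-0.26 to -0.11), Cdh1 (-0.32 to -0.050) and Cdh2 (-0.24 to -0.048), for the untreated ratio of Cdh1 (0.07 to 0.66) and Ctnnd1 (-0.48 to -0.18), and for the change of Cdh1 (-0.77 to -0.35), Cdh2 (-0.35 to -0.14) and Ctnnd1 (0.12 to 0.76). Itgb1 over both conditions was at -0.25 to -0.17 and kept its sign.

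Same-numbered arrays of the groups correlated at 0.13, 0.021, -0.051 and 0.094, and 2 of 4 nocodazole arrays were most like their own number, so the numbers were not taken as pairs. The arrays numbered 3 carry HM-1 in opposite dyes, so there the check cannot tell dye from pairing. It does not show that the arrays are unpaired. With a replicate block 0 features passed in each comparison, with 676, 1110, 947 and 616 at an unadjusted p under 0.05 with nocodazole, untreated, over both conditions and for the change. Under this block Itgb1 was at -0.18 over both conditions.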
